A study of Homo sapiens with 6 samples.

Results

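The regions described here are RUNX1 binding sites that were listed in ME-1 cells after AI-10-49, were absent from the DMSO list, and lay outside all chromatin listed as acetylated. Sites were chosen by the authors' peak intervals alone: a site was taken if its interval shared not a single base with a RUNX1 site of the DMSO list or with an H3K27ac region of the AI-10-49 or the DMSO list. Of 10319 RUNX1 sites in the AI-10-49 list, 8783 (85.1%) overlapped no DMSO site, and of these 692 (7.88%) also overlapped no H3K27ac region. These shares are set by the way the sites were chosen and are given as a description. The label held for listed overlap, but 231 of the 692 sites (33.4%) had an H3K27ac region within 1 kb, so they are called unacetylated below only in the sense of lying in no listed region.

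ME-1, an established line of human leukemia cells, carries inv(16), which fuses CBFB to MYH11 and yields the protein CBFβ-SMMHC. All 4 groups used are of this 1 cell line, each with 1 library: RUNX1 after AI-10-49, H3K27ac after AI-10-49, RUNX1 after DMSO and H3K27ac after DMSO. AI-10-49 was given at 1 µM for 6 h and DMSO, its vehicle, for the same time. Without a second library in any group, no difference between conditions could be set against replicate spread, so no p-value is given, and intervals (exact Clopper-Pearson for shares, exact Poisson for fragments, 95%) cover counting only. Depth recovered from the lists was 31.5 M (mega) reads for RUNX1 in AI-10-49 and 33.8 M in DMSO, and 37.0 M for H3K27ac in AI-10-49 and 35.7 M in DMSO.

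RUNX1 is a DNA-binding transcription factor of blood cell development that binds DNA more tightly with its partner CBFβ. The fusion protein CBFβ-SMMHC also binds RUNX1, and AI-10-49 is a small molecule that blocks this contact. H3K27ac marks nucleosomes at active promoters and enhancers, and the nucleosome-depleted stretch where factors bind often lies between acetylated flanks. RUNX1 acts both as an activator and as a repressor, and it can occupy sites that carry no acetylation.

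In these libraries a smaller share of the AI-10-49-only sites than of the DMSO sites lay outside acetylated regions. Of the AI-10-49-only sites 7.88% (7.32 to 8.46) lay outside, against 16.6% (14.9 to 18.5) of the 1701 DMSO sites. Among AI-10-49 sites that overlapped a DMSO site, 197 of 1536 lay outside (12.8%, 11.2 to 14.6). Taken by the intervals of the DMSO list, 239 of 1551 such shared sites did (15.4%, 13.6 to 17.3). The list whose intervals are used thus also shifts the share. Of the 150 DMSO-only sites, 44 did (29.3%, 22.2 to 37.3). The whole AI-10-49 list thus held 889 sites outside acetylated regions, of which 692 had no DMSO counterpart.

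The 692 sites were mostly modest in height. The number of RUNX1 fragments over the summit, recovered from the authors' fold enrichment and p-value of each peak, had a median of 25 (quartiles 21 and 33, range 12 to 128). Per M reads this came to a median of 0.793 in the 692 sites, against 1.02 in the 7507 AI-10-49-only sites in H3K27ac regions of both lists and 0.984 in all 8783. The 197 unacetylated sites that overlapped a DMSO site had a median of 1.49. Fold enrichment over local background, a value of the authors' peak caller, had a median of 6.17 in the 692 sites and 6.46 in those in regions of both lists. Intervals had a median width of 224 bp against 282 bp, but the choice of sites favours narrow intervals, since a wide one more easily touches a region. A further 990 sites of the AI-10-49 list had a summit clear of all regions and DMSO sites and were left out through their interval alone.

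**Figure D1:**
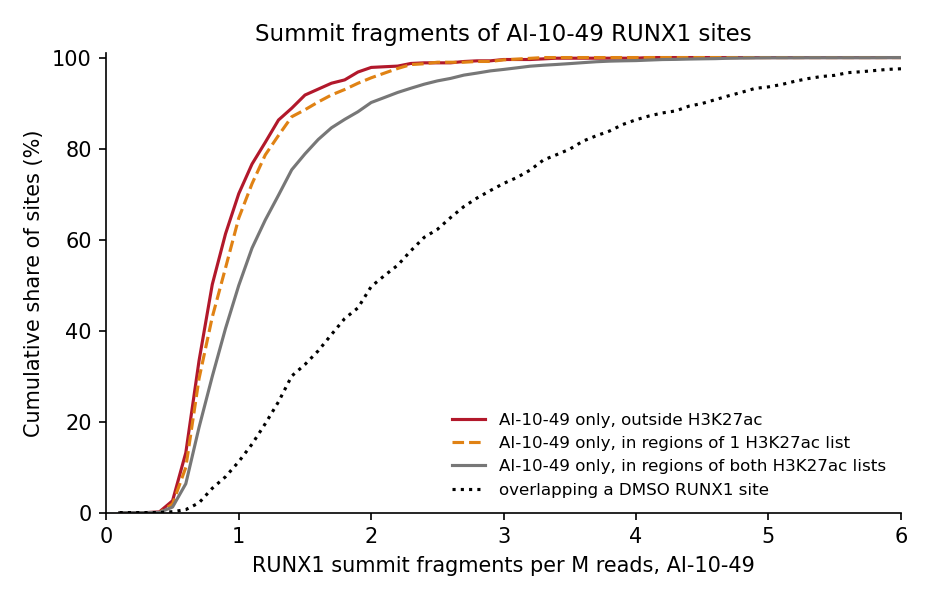
Cumulative share of AI-10-49 RUNX1 sites (y axis, %) below a given number of summit fragments per M reads (x axis), for 4 classes of sites named in the key. The curve of the AI-10-49-only sites outside H3K27ac (median 0.793) runs left of that for sites in regions of both lists (median 1.02), and far left of sites that overlap a DMSO site (median 2.03).

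The local background under the summit, which reflects input reads, was also lower. Its median was 2.7 fragments in the 692 sites and 3.21 in sites in regions of both lists. The lowest value the caller allows, the average over the genome, stood at 91 of the 692 sites (13.2%, 10.7 to 15.9) and at 5.73% of sites in regions of both lists. What part this has in the lower fragment numbers was not tested. The highest background at any of the 692 sites was 10 fragments, and 19 elsewhere in the list. Background is on the caller's scaled depth, while summit fragments are given unscaled. For the fold, summit fragments are first multiplied by 0.875, and a small constant is added to both. Dividing the 2 numbers as printed therefore does not give the fold.

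The share of AI-10-49-only sites outside acetylated regions was lower among stronger sites. It was 9.12% (7.36 to 11.1) below a −log10 q of 5, 9.85% from 5 to below 10 and 8.21% from 10 to below 20. From 20 to below 40 it was 5.55%, from 40 to below 80 it was 3.49%, and at 80 or more 3 of 154 sites lay outside (1.95%, 0.404 to 5.59). Of the 692 sites 337 had a −log10 q of at least 10 (48.7%), against 58.2% of all AI-10-49-only sites. At 50 or more stood 13 of the 692 (1.88%) and 5.84% of all AI-10-49-only sites. Because whole intervals had to be clear, the choice of sites favours narrow ones. What part width has in the lower shares was not tested. For AI-10-49 sites that overlapped a DMSO site, no share by −log10 q class was computed. These had a median −log10 q of 40.4 and a median width of 415 bp, and 12.8% of them lay outside. The 197 that lay outside had a median −log10 q of 28.0 and a median width of 308 bp.

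**Figure D2:**
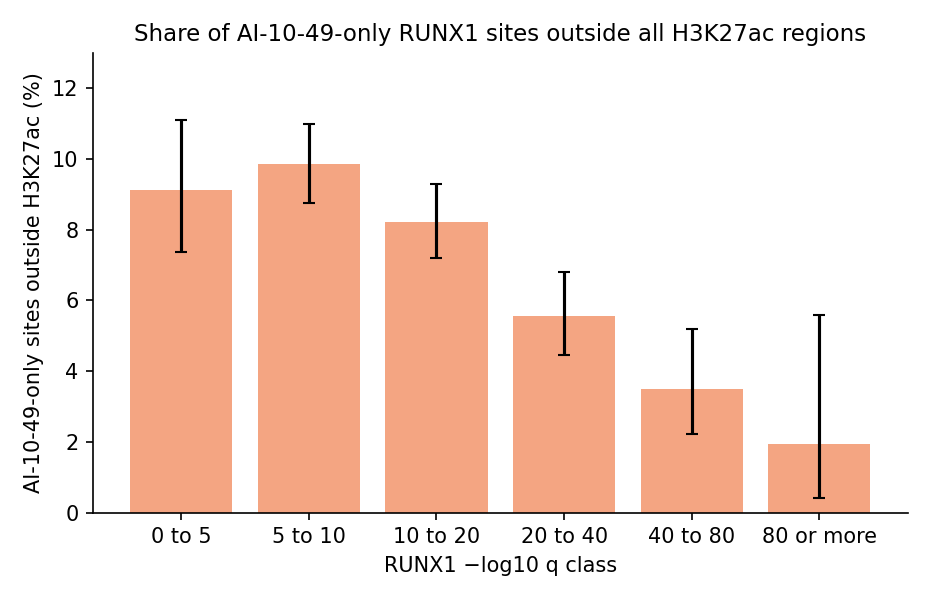
Share of AI-10-49-only RUNX1 sites outside all H3K27ac regions (y axis, %) in 6 classes of −log10 q (x axis), with exact 95% intervals as error bars. The bars run between 8.21% and 9.85% in the 3 weakest classes and down to 1.95% in the strongest, which holds 154 sites.

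The strongest of the 692 sites stood anywhere from a few kb to far from acetylated chromatin. The highest −log10 q (112) belonged to chr19:8812687-8813182 in 19p13.2 (hg19, as all positions here). It held 128 summit fragments, or 4.06 per M reads (3.39 to 4.83), at a fold enrichment of 22.6. The nearest H3K27ac region was 63.1 kb away in the AI-10-49 list and 30.9 kb away in the DMSO list. The nearest DMSO RUNX1 site was 31.3 kb off. The next, chr17:78193182-78193695 in 17q25.3, held 104 fragments at a fold of 23. Its nearest H3K27ac region was 5.72 kb away in AI-10-49 and 34.6 kb in DMSO.

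The largest fold enrichment, 27.5, was at chr3:7918403-7918895 in 3p26.1, with 85 unscaled fragments and a background of 1.74 at scaled depth. That site stood 381 kb from an AI-10-49 H3K27ac region, 193 kb from a DMSO one and 1486 kb from a DMSO RUNX1 site. A second strong site far from acetylation was chr20:6681612-6682001 in 20p12.3, the band of the growth factor gene BMP2. It held 93 fragments at a fold of 17.5, and H3K27ac regions were 606 kb (AI-10-49) and 577 kb (DMSO) away. Genes named beside a band are background, chosen after the values were seen, and do not place a site at the gene. The 5q13.3 site chr5:73622832-73623125 (71 fragments, fold 17.0) was about equally far from both H3K27ac lists, at 32.7 kb in AI-10-49 and 32.8 kb in DMSO, and 2075 kb from a DMSO RUNX1 site.

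Other strong sites stood a few kb from acetylated regions. At chr6:158400458-158400917 in 6q25.3 (82 fragments, fold 21.5) the distances were 1.93 kb to an AI-10-49 and 1.84 kb to a DMSO region. The 8q24.3 site chr8:145010551-145010988 (105 fragments, fold 13.3) lay 2.44 kb and 1.99 kb from them, and the 7q21.3 site chr7:97766992-97767428 (70 fragments, fold 20.7) 5.01 kb and 5.42 kb. Each of these 3 had a DMSO RUNX1 site within 5 kb, at 4.88, 2.79 and 4.2 kb. At chr19:55034598-55034971 in 19q13.42, the band of a large cluster of leukocyte receptor genes, 74 fragments stood at a fold of 16.4. H3K27ac regions lay 1.57 kb away in AI-10-49 and 1.46 kb in DMSO. Of the 10 sites with the highest −log10 q, the one not yet named was chr11:66725721-66726300 in 11q13.2, with 94 fragments at a fold of 12, 11.8 kb (AI-10-49) and 12.3 kb (DMSO) from acetylation. Of these 10 sites on 9 chromosomes, 5 were more than 10 kb from any H3K27ac region and 2 more than 100 kb.

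At the other end, chr15:81003551-81003802 in 15q25.1 had the lowest −log10 q of the 692 (1.91). It had 24 unscaled fragments, a background of 7.0 at scaled depth and a fold of 2.75. The fewest fragments, 12, were at chr11:6256122-6256290 in 11p15.4, and this site was 7 bp from an AI-10-49 and 10 bp from a DMSO H3K27ac region. The other 3 of the 5 weakest, in 1p36.33, 8q24.13 and 12q13.12, held 16 to 25 fragments at folds of 2.86 to 3.75.

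By distance to acetylated chromatin, sites within 1 kb are called adjoining here and the others remote. Counting the nearer of both lists, 32 sites were at most 10 bp from a region, 139 were farther but within 100 bp and 60 farther but within 1 kb. Another 123 stood between 1 and 10 kb, 249 between 10 and 100 kb and 89 beyond. A distance of 1 bp means that the intervals adjoin. The stretch from 100 bp to 1 kb thus held fewer sites than the first 100 bp, although it is longer. Up to 100 kb each class is about 10 times as long as the one before. Larger counts farther out therefore do not mean more sites per bp. Within 100 bp stood 171 sites (24.7%, 21.5 to 28.1), within 10 kb 354 (51.2%, 47.4 to 54.9) and beyond 100 kb 89 (12.9%, 10.5 to 15.6).

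**Figure D3:**
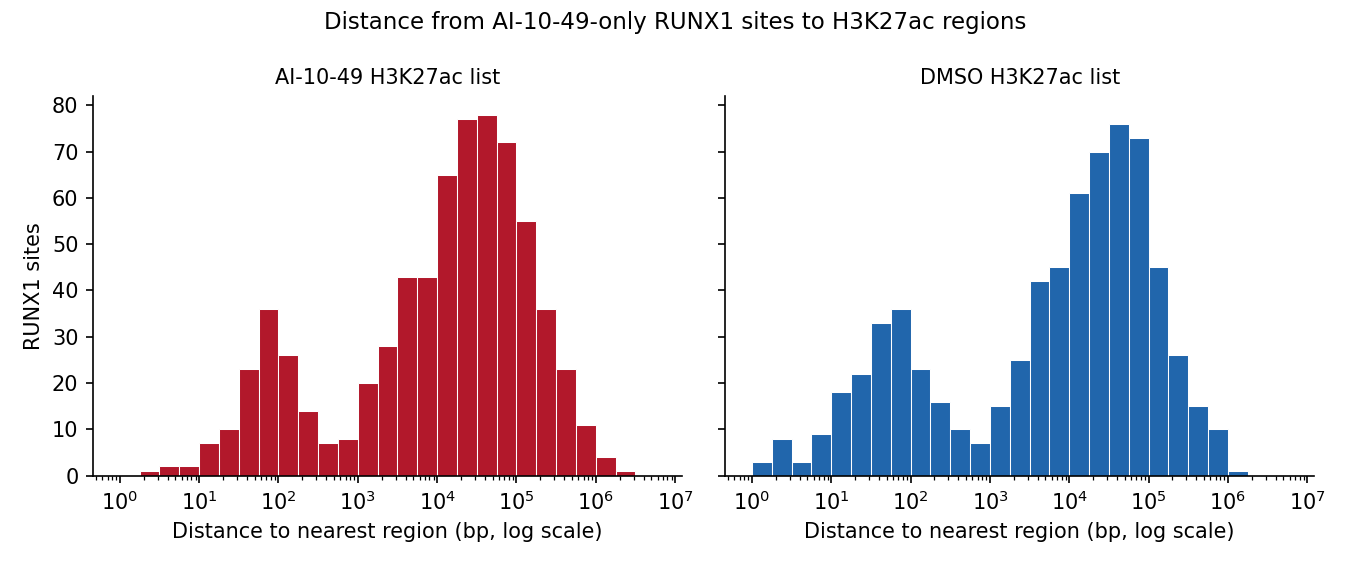
Number of RUNX1 sites (y axis) by the distance in bp to the nearest H3K27ac region of the AI-10-49 list (left) and of the DMSO list (right), on a log axis with 4 classes per 10-fold, for the 692 AI-10-49-only sites outside all H3K27ac regions. On this log axis both panels have 2 humps, one around 100 bp or below and one above 10 kb. Few sites stand just below 1 kb, and classes farther out span more bases.

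The DMSO list of acetylated regions stood closer than the AI-10-49 list. The median distance was 19.1 kb to an AI-10-49 region and 13.8 kb to a DMSO region. An AI-10-49 region stood within 1 kb of 136 sites (19.7%, 16.8 to 22.8) and a DMSO region within 1 kb of 188 (27.2%, 23.9 to 30.6). The AI-10-49 list covered 62.4 Mb and the DMSO list 68.7 Mb, and what part this has in the distances was not tested. Of the 231 sites with a region of either list within 1 kb, 43 had one of the AI-10-49 list only, 95 had one of the DMSO list only and 93 had both.

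Some of the adjoining sites, 68 of 231, had listed regions within 1 kb on both sides. Gap width is bounded by the choice, since each flank had to lie within 1 kb and the gap had to hold a whole site. On both sides within 1 kb, 34 sites had an AI-10-49 H3K27ac region, with a median gap between the regions of 404 bp (quartiles 343 and 485). Flanked likewise by DMSO regions were 51 sites, with a median gap of 387 bp (quartiles 309 and 482). Taking both lists together, 68 sites (9.83%, 7.71 to 12.3) were flanked on both sides. Their flanks could come from different lists, and no gap width was computed for this joint set. At 350 bp from the summit, taking the mean of both sides, 9.75% of the sites were inside an AI-10-49 region and 13.4% inside a DMSO region. At 5 kb the same means were 2.02% for AI-10-49 and 2.53% for DMSO.

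**Figure D4:**
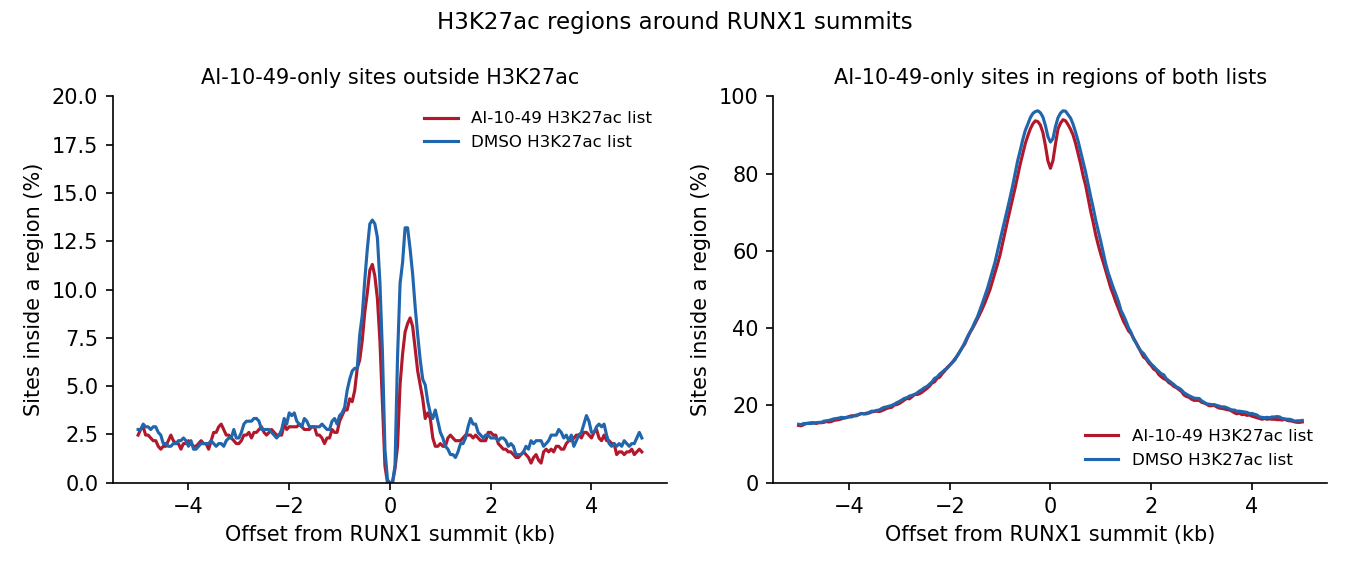
Share of RUNX1 sites (y axis, %) for which a base at a given offset from the summit (x axis, kb) lay in an H3K27ac region of the AI-10-49 list or the DMSO list, for the 692 AI-10-49-only sites outside all regions (left, axis to 20%) and the 7507 in regions of both lists (right, axis to 100%). The value of 0 at the centre of the left panel is set by how the sites were chosen. On the right, 81.4% (AI-10-49) and 88.2% (DMSO) of summits lay in a region, against 93.7% (AI-10-49) and 96.3% (DMSO) at 250 bp, as the mean of both sides.

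A dip at the summit was also present where the choice of sites did not set it. Among the 7507 sites in regions of both lists, the share inside an AI-10-49 region was 81.4% at the summit and 93.7% at 250 bp as the mean of both sides. For DMSO regions the values were 88.2% and 96.3%. At 5 kb these sites still had 15.2% (AI-10-49) and 15.6% (DMSO) of positions in a region, so their surroundings held several times more listed acetylation than those of the 692 sites.

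The regions next to the adjoining sites were weak ones for their lists. The 136 AI-10-49 neighbours had a median −log10 q of 6.11 and a median width of 376 bp, against 8.05 and 522 bp over the 66350 regions of that list. The 188 DMSO neighbours had 7.15 and 325 bp, against 10.4 and 551 bp over 67087 regions. Of the AI-10-49 neighbours, 52 (38.2%, 30.0 to 47.0) overlapped no DMSO region, against 21% of the list. Of the DMSO neighbours, 107 (56.9%, 49.5 to 64.1) overlapped no AI-10-49 region, against 29.0% of the list. The sites were chosen to lie clear of both lists, and the neighbours' low strength moves with this share. The part of either was not tested.

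Where neighbours of both lists overlapped each other, the ratio of H3K27ac between conditions was close to that of all shared regions. In 73 such pairs the ratio of summit fragments per M reads, AI-10-49 over DMSO, had a median of 0.832 (quartiles 0.661 and 1.06). Over the 47607 DMSO regions in both lists it was 0.839 (0.634 and 1.16). It was below 1 in 49 of the 73 pairs (67.1%) and in 64.3% of all.

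The remote sites were slightly stronger at the median. The 461 sites beyond 1 kb had a median of 26 summit fragments and a fold enrichment of 6.46, against 24 fragments and 5.87 in the 231 adjoining sites. Their median −log10 q was 10.8, against 8.69, and their median width 235 bp, against 207 bp. Close to a region the choice of sites favours narrow intervals. What part this has in the difference was not tested. The 89 sites beyond 100 kb had a median fold of 6.73 and a −log10 q of 11, and ranged from 15 to 93 fragments. The largest value within 1 kb was 72 fragments. Fragments and folds overlapped widely between the sites within and beyond 1 kb.

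The site farthest from any H3K27ac region was chr19:31506666-31507007 in 19q12, 991 kb from an AI-10-49 and 992 kb from a DMSO region, with 27 fragments at a fold of 4.92. The next, chr14:99014775-99014991 in 14q32.2, was 928 kb (AI-10-49) and 931 kb (DMSO) away and had 19 fragments. The strongest of the 5 farthest was chr16:26345570-26345879 in 16p12.1, with 46 fragments at a fold of 12.9 and both lists 835 kb away. The others, chr12:78427903-78428121 in 12q21.2 and chr5:92691448-92691648 in 5q15, had 21 and 18 fragments.

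At the boundary of the rule, sites just inside and just outside overlapped in strength. Inside, the 3 sites that adjoined a DMSO region at 1 bp were in 15q22.31, 3q28 and 6q14.3, with 26, 32 and 17 fragments. At 2 bp stood sites in 11q13.3 (37 fragments, DMSO region) and 12q13.13 (24 fragments, AI-10-49 region). Outside, the sites in 6p21.33 and Xq28 overlapped a region by 1 bp and had 16 and 44 fragments, and a site in 10p14 overlapped by 2 bp and had 33. In all, 32 sites stood within 10 bp and 28 AI-10-49-only sites overlapped a region by 10 bp or less.

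Most of the sites were far from RUNX1 sites of DMSO cells, as were AI-10-49-only sites in general. The median distance was 372 kb, against 286 kb over all AI-10-49-only sites and 278 kb over those in regions of both lists. Of the 692, 8 sites (1.16%, 0.5 to 2.27) had one within 1 kb and 61 (8.82%) within 10 kb. The nearest, chr21:47476484-47476906 in 21q22.3, was 198 bp from a DMSO site and had 48 fragments at a fold of 12.2. H3K27ac regions stood 148 bp (AI-10-49) and 208 bp (DMSO) from it. The next 4, in 19p13.3, 7q22.1, 1q23.1 and 17p11.2, were 352 to 503 bp from a DMSO site and had 23 to 29 fragments. Just outside, the unacetylated site with the least overlap, in 2p24.3, shared 78 bp with a DMSO site and had 23 fragments.

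Absence from the DMSO list bounds the DMSO level without making it 0. The lowest −log10 p in that list was 4.98. With the background per M reads taken as in AI-10-49, a summit could have held a median of 12 fragments (range 10 to 29) in DMSO without passing. The AI-10-49 level stood above this limit by a median of 2.14 times (range 1.12 to 9.11). It was more than 2 times the limit at 424 of the 692 sites (61.3%, 57.5 to 64.9), where 64.6% of all AI-10-49-only sites were. All 692 were above the limit, as were 100% of AI-10-49-only sites, so this tells nothing particular to the unacetylated ones. With the lowest DMSO background at every site the count above 2 times was 660. With fragment numbers divided by the ratio of fragment lengths, 1.13, it was 295, a minority of the 692. The bound takes summits only, and the caller also asks for a minimum width.

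The strongest sites stood well above the limit. At the 19p13.2 site the level was 4.06 fragments per M reads in AI-10-49 and the limit for DMSO 0.474, which made the level 8.57 times the limit if the background was alike, before counting error and fragment length. At the 3p26.1 site the level was 2.7 (2.15 to 3.33) and the limit 0.296, and at the 20p12.3 site the level was 2.95 (2.38 to 3.61) and the limit 0.444. At the 15q25.1 site, the weakest by −log10 q, the level was only 1.12 times the limit.

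No bound was computed for H3K27ac at each site. The weakest listed regions had 12 summit fragments in AI-10-49 (0.324 per M reads) and 9 in DMSO (0.252 per M reads). These lowest numbers were taken over all regions, including the few whose fragments were not solved within tolerance. Acetylation under such levels was not detectable in these lists, and where the background is higher, levels above them can also go unlisted.

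The sites were spread over 23 chromosomes and 371 cytobands, of which 206 held a single site. As a share of AI-10-49-only sites they made up 12.6% on chromosome 5 (53 sites, 9.62 to 16.2), 11% on chromosome 9, 10.8% on chromosome 4 and 10.7% on chromosome 8 (47 sites, 7.95 to 14.0). The lowest share on a chromosome with any of the sites was 4.35% on chromosome 16 (14 sites, 2.4 to 7.19). Chromosome 22 had 5.24% and chromosome 21 had 6.09%. Chromosome 16 also carries the inversion, and a link to its share was not tested. Background under the sites was 4.0 fragments at the median on chromosomes 8 and 18, 4.23 on chromosome 11 and 3.72 on chromosome 20. It was 1.73 on chromosome X and 2.0 to 2.71 on chromosomes 1 to 7. Chromosome 11 had a share of 7.74%, chromosome 18 had 6.4% and chromosome 20 had 7.89%, and chromosome 9 had 11% at a median background of 2.0.

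**Figure D5:**
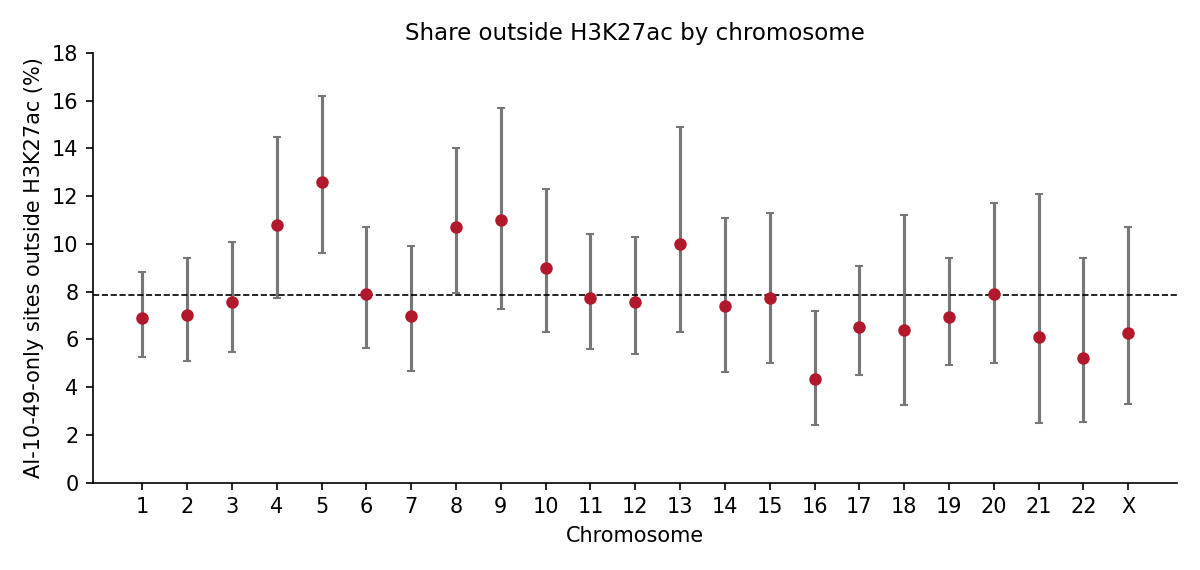
Share of AI-10-49-only RUNX1 sites outside all H3K27ac regions (y axis, %) on each chromosome (x axis), with exact 95% intervals as error bars and the value over all chromosomes (7.88%) as a dashed line. Chromosome 5 (12.6%) and chromosome 16 (4.35%) mark the ends, and most intervals include the dashed line. Chromosome Y, with 1 AI-10-49-only site and none outside, is left out.

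Giemsa staining of chromosomes separates pale, gene-rich bands from dark, gene-poor ones. Of the 692 sites 402 were in unstained bands (58.1%, 54.3 to 61.8), against 62.2% of sites in regions of both lists. Of H3K27ac regions, 40367 of 66350 (AI-10-49) and 40259 of 67087 (DMSO) were there, both inside the interval of the 692. In the darkest class were 62 (8.96%, 6.94 to 11.3), against 5.16% (4.67 to 5.68). H3K27ac regions themselves were in the darkest class in 6.1% (AI-10-49) and 6.6% (DMSO) of cases. The share in the darkest bands was thus above both in these libraries, and most of the sites lay elsewhere.

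Most of the sites had no other of the 692 within 50 kb. Another site of the 692 stood within 50 kb of 94 of them (13.6%, 11.1 to 16.4) and within 10 kb of 49. No set of like size was set beside these counts, so whether the sites cluster was not tested. Any other AI-10-49 RUNX1 summit stood within 10 kb of 155 (22.4%, 19.3 to 25.7), against 38.3% of sites in regions of both lists. The 94 formed 39 pairs and 5 larger groups.

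The largest group had 4 sites over 44.3 kb in 21q22.3, the band of SIK1, a kinase of the LKB1 pathway. They held 24 to 33 fragments each, and the foremost, chr21:44876515-44876830, had a fold of 8.37 and stood 29.8 kb from an AI-10-49 but 49 bp from a DMSO H3K27ac region. In 15q23, the band of TLE3, a corepressor of the Groucho family to which RUNX proteins bind, 3 sites spanned 49.6 kb. They stood 111 to 160 kb from AI-10-49 and 106 to 155 kb from DMSO H3K27ac regions. The strongest of them, chr15:70556593-70556955, held 59 fragments at a fold of 13.2 and was 1.91 kb from a DMSO RUNX1 site. In 11q13.3, the band of the cyclin gene CCND1, 3 sites over 20.2 kb held 45, 32 and 58 fragments, and the first was 858 bp from a DMSO RUNX1 site. In 1q22, the band of the lamin gene LMNA, 3 sites over 13.7 kb held 58, 17 and 19. The group in 19p13.2 spanned 65.0 kb and included the strongest site of all.

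By band, 2q35 held the most, with 9 of its 23 AI-10-49-only sites (39.1%). They were weak to middling, from 0.412 to 1.21 fragments per M reads, and 2 of the 9 were within 1 kb of an H3K27ac region. Next came 1q32.1 with 8 of 53, and then 15q23, 19p13.2 and 19q13.32 with 7 each, of 22, 83 and 43. The 6 in 6q25.3 were stronger, with a median of 1.67 fragments per M reads and none within 1 kb of acetylation. In all, 16 bands held 5 or more. Their shares ran from 8.43% in 19p13.2 to 39.1% in 2q35, against 7.88% over all AI-10-49-only sites. Bands picked by their count tend to have high shares.

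The bands of 4 genes known from this leukemia were looked at by name, against the 7.88% of all AI-10-49-only sites. In 8q24.21, the band of the growth regulator MYC, 4 of 18 AI-10-49-only sites were unacetylated (22.2%, 6.41 to 47.6). The foremost, chr8:131291363-131291596, had 37 fragments at a fold of 7.71 and stood 49 bp from an AI-10-49 H3K27ac region but 38.0 kb from a DMSO one. The other 3 held 43, 21 and 31 fragments and stood 26.3 to 78.3 kb from AI-10-49 and 67.4 to 78.3 kb from DMSO regions. In 16q22.1, the band of CBFB, 1 of 18 qualified (5.56%, 0.141 to 27.3), with 16 fragments, 26 bp from an AI-10-49 and 19 bp from a DMSO region. In 21q22.12, the band of RUNX1, 0 of 16 did (upper bound 20.6%), and in 16p13.11, the band of MYH11, 0 of 9 (upper bound 33.6%). All 4 intervals include 7.88%. A shared band does not place a site at the gene, and distances to these genes were not measured.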

How the data were processed

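ChIP-seq of RUNX1 and H3K27ac was done in ME-1 cells, and 4 of the 6 libraries, each with a deposited peak list, were used. The 2 inputs were not used here directly. Per the submitters' processing notes, which give no order, MACS2 2.1.0, Bowtie2 2.1.0, Picard 1.96, CASAVA 1.4 and SAMtools 1.3 were used, with build hg19. Each library has its own list. The input set against each ChIP library is not stated there. The deposited ratio is fold enrichment at the summit, and the deposited −log10 p and −log10 q are also the authors'. The deposited score was not used.

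Summit fragments and background were recovered from fold enrichment and −log10 p, as whole numbers fit only at the right scale between ChIP and input (100% of RUNX1 peaks solved within 0.003). Of H3K27ac regions, 99.971% (AI-10-49) and 99.589% (DMSO) were solved. Simulated peaks for the RUNX1 AI-10-49 list (2997) gave 99.967% exact numbers, and those for RUNX1 DMSO (2993) 100.0%. Reads follow from the lowest background, a genome of 2700000000 bp (assumed) and the shortest peak (169 bp in RUNX1 AI-10-49 and 149 bp in RUNX1 DMSO). Fragments per M reads are not corrected for this length ratio of 1.13. Groups came from sample titles.

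Sites overlapped if they shared 1 bp (bedtools 2.31.1 gave the same counts). Cytobands are from circlize 0.4.16. With only tables of another build at hand, genes, exons and introns at the sites, the RUNX motif and site sequences were not analysed here. Marker genes of the cell line were not checked for the same reason. The members and lists were chosen with earlier results of these data known. Named sites were those with the highest and lowest −log10 q, largest fold, most and fewest fragments, extreme distances, groups of 3 or more within 50 kb, and those nearest the rule's edge. The sites of the MYC and CBFB bands, and the remarks on bands, were added after the values were seen. Python 3.11.15, numpy 2.4.6, pandas 2.3.3, scipy 1.17.1 and matplotlib 3.10.9 were used.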

Additional observations from a re-analysis of the deposited data

How the results depend on the processing

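Of 59 alternative values 32 stayed close (within the interval of a share or median, or within 1.5 times for a count) and 27 moved. The stricter thresholds keep a part of the same sites by construction. The 692 sites came to 458 with a 1 kb margin to H3K27ac and DMSO RUNX1 peaks, to 337 with a −log10 q of at least 10, and to 1682 when only the summit had to be clear. That last set holds all 692 and 990 others, whose intervals touch an H3K27ac region or a DMSO RUNX1 site. Median summit fragments per M reads (0.793) were 0.888 with the summit alone, and 0.857 and 1.05 at −log10 q of at least 5 and 10. Median fold (6.17) was 6.46 with the margin and 6.46 with the summit, and 6.47 and 7.97 at these thresholds. Median background (2.7) was 3.0 with the summit. Median distance to H3K27ac (9.18 kb) was 28.2 kb with the margin, 0.0 kb with the summit, 4.36 kb when only H3K27ac regions of −log10 q of at least 5 counted, and 13.7 kb at RUNX1 −log10 q of at least 10. The share within 10 kb (51.2%) was 26.4%, 79.7%, 57.9% and 44.8% in these 4. The share near another site (13.6%) was 10.3% with the margin, 20.6% with the summit and 10.1% at −log10 q of at least 10, and 7.08% and 21.5% with 10 kb and 100 kb in place of 50 kb. The count over 2 times the DMSO limit (424) was 295 with fragment numbers divided by the length ratio and 660 with the lowest DMSO background. The share in unstained bands and the distance to DMSO RUNX1 sites stayed within their intervals in every alternative run. The cause was otherwise not tested. Motif and gene alternatives were not run. No paired analysis was possible because each group had 1 library. Depth limits what absence means, since a level below the weakest listed peak goes unlisted.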
